A study of Mus musculus with 21 samples.

Results

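Whole left lungs of female BALB/c mice taken 3 h after a single aspiration of bovine serum albumin (BSA) were compared with lungs taken 3 h after the vehicle alone. The comparison uses 6 of the 21 arrays of the series, chosen by their titles: 3 for BSA at 3 h and 3 at 3 h for Hank's Balanced Salt Solution (HBSS), the vehicle. The mice were 8 weeks old, and the albumin group received 20 µg of BSA in 50 µl of HBSS into the trachea while the vehicle group received 50 µl of HBSS. Vehicle mice therefore also had fluid in the airways, and the comparison asks what the foreign protein adds to that. The other groups, used here only beside these, are BSA at 12 h (n = 4), HBSS at 12 h (n = 4), a crude extract of the fungus Metarhizium anisopliae (MACA, 20 µg) at 3 h (n = 4) and MACA at 12 h (n = 3). Replicates are labelled as biological, and whether an array stands for 1 mouse is not given in the sources used here.

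Albumin is the main protein of plasma and is also present in the thin fluid that lines the airways, from which epithelial cells take it up through endocytic receptors and by vesicles. Injured or stretched airway and alveolar epithelium is known to raise keratins, growth factors of the epidermal growth factor family and the AP-1 factor Fosl1. Another set of stress genes answers to the transcription factor Atf4, which is made when amino acids run short or when unfolded proteins collect in the endoplasmic reticulum. A further set answers to the transcription factor Nrf2, which is activated by oxidants and electrophiles. Microbial products, in contrast, are known to act on the lung mainly through NF-kB and interferon genes.

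The median deposited intensity of the 6 arrays lay between 93.0 and 185. After quantile normalization, the median correlation was 0.988 over the 6 pairs of same-group arrays and 0.984 over the 9 pairs across groups. Lung genes were bright in both groups: Ager, of the flat alveolar cell, read 6340 to 7085 with albumin and 7503 to 7968 with vehicle. Of 2 endothelial genes, Pecam1 read 2983 to 3273 with albumin and 3533 to 3647 with vehicle, and Cdh5 read 4494 to 4868 and 4244 to 4581. Of the neutrophil genes, S100a8 read 408 to 1593 with albumin and 358 to 1317 with vehicle, and Csf3r read 87.9 to 201.1 and 83.1 to 245. Mpo and Elane were under the noise level of intensity 40.9 on all 6 arrays. That level is set so that 95% of the negative values are smaller than it in size. In whole lung, fewer cells of a type and less RNA per cell cannot be told apart.

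Few transcripts differed past the threshold between albumin and vehicle, and nearly all of these were higher with albumin. In the limma fit of all 21 arrays, 34 of 22626 probe sets passed an adjusted p of 0.05, which is 0.15% of those tested. Of these, 30 were higher (0.133%) and 4 lower (0.0177%), and 17 of the higher ones were at least 2-fold higher. In all 34 the 2 groups of arrays did not overlap, which was so for 8.79% of probe sets on the higher side and 8.79% on the lower side. They name 25 genes, 23 of them higher. Among the 12393 genes, each read by its brightest probe set, 19 were higher (0.153%) and 2 lower (0.0161%). Keratins, a gap junction protein, secreted factors, a drug exporter, chaperones, enzymes and 1 AP-1 factor were among the genes that rose.

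The number of calls changed with the arrays fitted and with the scaling. The 6 arrays and the 10 arrays of 3 h were quantile normalized anew, so folds and spread can both change. The 6 arrays fitted alone gave 97 calls (0.429% of probe sets), 84 higher (0.371%) and 13 lower (0.0575%), and 13 of the 97 are among the 34. The 10 arrays of 3 h, with MACA included, gave 171 calls (0.756%), 135 higher (0.597%) and 36 lower (0.159%), and 26 of the 34 are among them. Without any scaling between the arrays, 0 probe sets passed and 732 had an unadjusted p under 0.05, against 2216 (9.79%) in the scaled fit. Leaving out 1 array at a time left 8 to 27 calls, and each of the 6 arrays ended at least 7 of the 17 calls on genes named below by rule. Gjb2, Mboat1, Fgfbp1 and Abcc1 passed without each array in turn, while Fosl1, Chac1, Clu, Rcan1 and Krt8 lost their call whichever array was left out. In the 6 arrays alone 10 of the 17 passed, and 7 did not: Krt15 (adjusted p = 0.115), Fgfbp1 (0.0796), Hspb1 (0.127), Hspe1 (0.0741), Fam83h (0.146), Mal (0.106) and Krt18 (0.0928). In the 10 arrays of 3 h, 16 of the 17 passed, with Krt15 the exception (adjusted p = 0.178). Without replicate 1 of HBSS, 8 probe sets passed, and without replicate 2 or 3 of BSA, or replicate 2 of HBSS, 13 passed. Without replicate 1 of BSA, 27 passed, and without replicate 3 of HBSS, 24 passed.

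**Figure D1:**
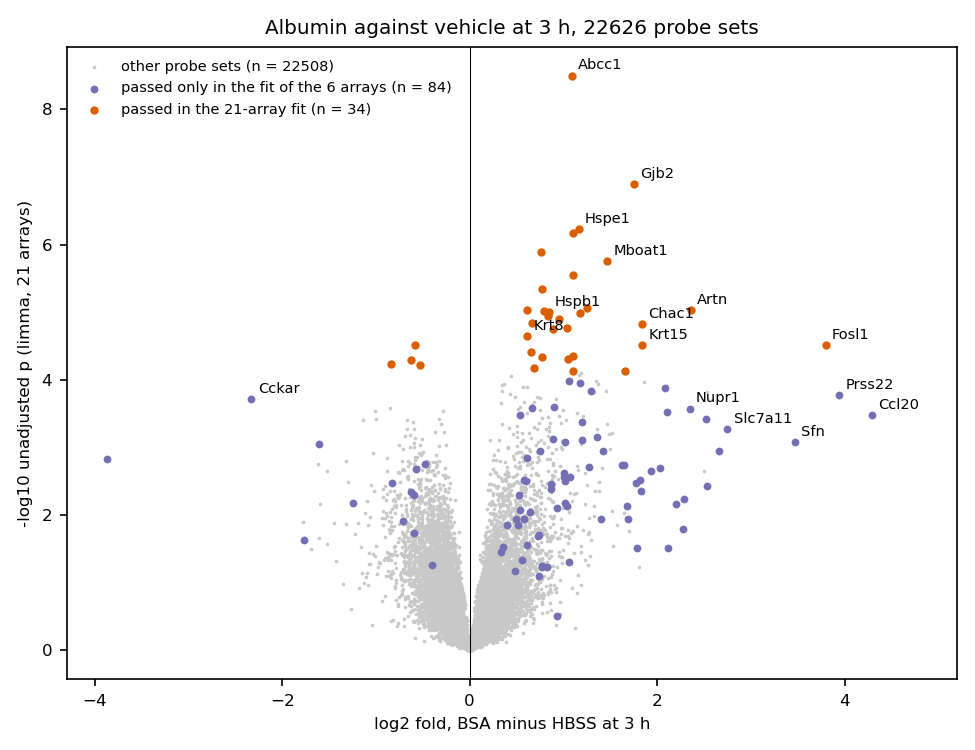
Each point is 1 of 22626 probe sets. The x axis is the log2 fold of BSA over HBSS at 3 h and the y axis is -log10 of the unadjusted limma p of the 21-array fit. Orange points are the 34 probe sets that passed in that fit, 30 of them to the right of 0, and purple points are the 84 that passed only when the 6 arrays were fitted alone.

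The largest rise past the threshold was that of Fosl1, which codes for Fra-1, an AP-1 subunit made by wounded and stretched epithelium. Fosl1 read 174, 261 and 228 with albumin and 2.62, 0 and 0 with vehicle. All 3 albumin arrays were well above the noise level and all 3 vehicle arrays were below it. The log2 fold was 3.80 ± 0.67 (SE, n = 3 per group; adjusted p = 0.0290), or at least 4.12-fold against the noise level. The call did not survive leaving out any 1 of the 6 arrays. Of the other immediate early genes, Myc, a driver of cell growth, read 301, 297 and 287 with albumin and 102, 83.4 and 71.7 with vehicle. Its groups did not overlap, and it passed in the 6 arrays alone (adjusted p = 0.0235) but not in the 21-array fit (adjusted p = 0.186). The classic factors of the family were near each other in both groups: Fos read 1145, 924 and 1124 with albumin and 925, 1013 and 666 with vehicle, and Atf3 read 206, 158 and 188 against 154, 166 and 137. Egr1 stood between, at 1860, 1437 and 1529 against 796, 1032 and 608, a log2 difference of 1.00 ± 0.33 that did not pass (adjusted p = 0.287). In all, 1 of 33 measured immediate early genes passed, and 7 were higher at an unadjusted p under 0.05 with none lower. Over all genes 5.27% were higher and 5.34% lower at that limit.

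Several genes of epithelial structure passed. Gjb2, connexin 26 of epithelial gap junctions, read 279, 294 and 309 with albumin and 55.0, 91.4 and 85.2 with vehicle. Every albumin array stood above every vehicle array. Its log2 fold was 1.76 ± 0.20 (adjusted p = 0.00145), and it passed without each of the 6 arrays in turn. Krt8 and Krt18 are the paired keratins of simple epithelium. Krt8 read 4239, 4460 and 4517 against 2746, 2887 and 2972 (log2 0.62 ± 0.11, adjusted p = 0.0241). Krt18 read 2594, 2733 and 2825 against 1712, 1517 and 1899 (log2 0.67 ± 0.11, adjusted p = 0.0186, and 0.0928 in the 6 arrays alone). Both keratins stood higher on every albumin array than on any vehicle array, and their changes were of like size. Krt19, another simple keratin, read 4844, 4056 and 4708 against 3209, 2648 and 3060 and did not pass (log2 0.61 ± 0.12, adjusted p = 0.0634).

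The basal cell keratin Krt15 read 21.7, 57.7 and 51.8 with albumin and 0, 0 and 0 with vehicle, so 1 albumin array was itself under the noise level. It passed (adjusted p = 0.0290), but the change can only be put at 1.01-fold or more. Mal, a raft protein of apical sorting, read 547, 597 and 695 against 322, 345 and 388 (log2 0.77 ± 0.11, adjusted p = 0.0127). Fam83h, which binds keratin filaments, read 167, 223 and 205 against 90.5, 110.0 and 123 (log2 0.79 ± 0.13, adjusted p = 0.0166). Mpzl2, an epithelial adhesion protein, passed by 1 of its probe sets, at 419.5, 500 and 370 against 148, 235 and 223, while its brightest did not (adjusted p = 0.143).

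Growth factors and secreted proteins came next. Artn, artemin, a neurotrophic factor of the GDNF family, read 107, 109 and 118 with albumin and 10.4, 5.54 and 10.99 with vehicle. The vehicle arrays were all under the noise level, which puts the rise at no less than 2.24-fold (log2 2.36 ± 0.37, adjusted p = 0.0166). Fgfbp1, which releases fibroblast growth factors from the matrix, read 1358, 1100 and 1204 against 661, 520.5 and 501 (log2 1.11 ± 0.14, adjusted p = 0.00376). Cxcl17, a mucosal chemokine-like protein of airway epithelium, read 1801, 1757 and 1811 against 835, 989 and 771 (log2 1.04 ± 0.17, adjusted p = 0.0199). Clu, clusterin, a secreted chaperone of injured epithelium, read 4488, 5195 and 5243 against 2204, 2159 and 2541 (log2 1.11 ± 0.20, adjusted p = 0.0390). In none of these 4 genes did the groups overlap.

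Of the 26 measured ligands of the EGF receptor and epithelial repair genes, 2 passed (Krt8 and Krt18). At an unadjusted p under 0.05, 13 were higher and 0 lower, where 5.27% of all genes were higher and 5.34% lower. The list's median log2 fold was 0.45, with 24 of 26 above 0, against a median of -0.01 over all genes. Sfn, the 14-3-3 protein of squamous cells, read 328, 289.6 and 428 against 25.4, 3.16 and 26.9, and passed in the 6 arrays alone (adjusted p = 0.0452) but not in 21 (adjusted p = 0.141). Cldn4, a claudin that seals epithelium, read 426, 200.2 and 383 against 51.2, 37.0 and 43.6 and passed in the 10 arrays of 3 h (adjusted p = 0.00803), in neither of the other fits. Hbegf, a ligand of the EGF receptor, read 428, 954 and 678 against 595, 573 and 637 and its groups overlapped. Prss22, a serine protease of airway epithelium that was named after its values were seen, read 620.1, 757 and 458 against 25.7, 35.2 and 14. It was at least 10.8-fold higher with albumin and passed in the 6 arrays alone (adjusted p = 0.0202) but not in 21 (adjusted p = 0.0696).

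Transport and signalling genes came next, among them the gene with the smallest p. Abcc1, the exporter MRP1 that carries glutathione conjugates out of cells, read 688, 720.1 and 624.9 against 344, 288 and 297. Its log2 fold of 1.09 ± 0.10 had an adjusted p of 7.18e-05, and it passed without each of the 6 arrays in turn. Mboat1, a lysophospholipid acyltransferase, read 482, 486 and 469 against 170.1, 175 and 145 (log2 1.47 ± 0.20, adjusted p = 0.00654). Rcan1, an inhibitor of calcineurin, read 1071, 1077 and 1053 against 583, 552 and 568 (log2 0.89 ± 0.15, adjusted p = 0.0199). The 3 arrays of each group lay closer together for Rcan1 than the step between the groups. Camk1d, a calcium-dependent kinase, read 141, 151 and 138 against 80.1, 92.3 and 91.9 (log2 0.61 ± 0.10, adjusted p = 0.0166).

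**Figure D2:**
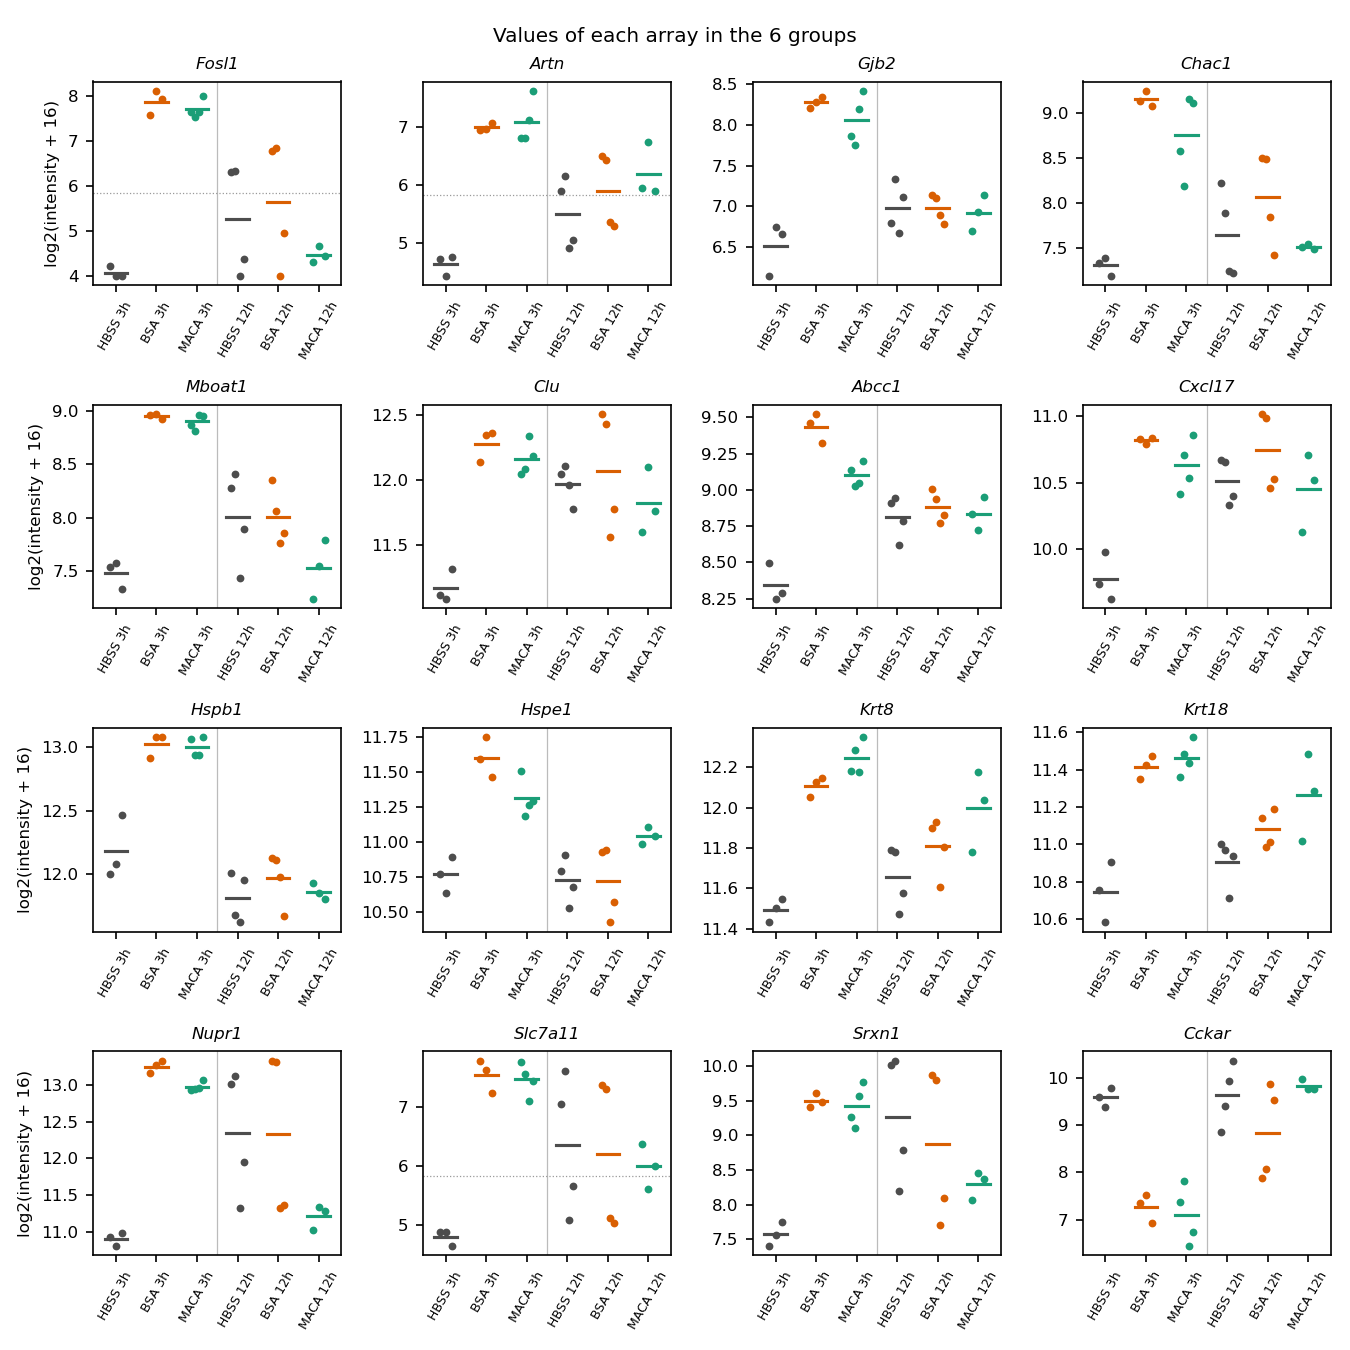
Each panel is 1 gene, each point 1 array and each bar the group mean, on the log2(intensity + 16) scale, for vehicle (grey), albumin (orange) and MACA (green) at 3 h and 12 h. The dotted line, where it falls inside a panel, is the noise level of log2 5.83. At 3 h the albumin arrays stand above the vehicle arrays in every panel but that of Cckar, where they stand below, and at 12 h the vehicle arrays of genes such as Nupr1 and Srxn1 split into high and low values.

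Of 22 measured genes of the Atf4 and unfolded protein response, 21 were higher with albumin than with vehicle on average, and 1 passed in the 21-array fit. The promoters of 4 of them are shown because each holds the composite C/EBP-ATF element, through which Atf4 is known to act. The windows run from 250 bases before to 50 after the start site, from RefSeq on GRCm38.p6, and capitals mark the matches to TGATGNAA on either strand.

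Chac1, chr2:119350992-119351291, plus strand: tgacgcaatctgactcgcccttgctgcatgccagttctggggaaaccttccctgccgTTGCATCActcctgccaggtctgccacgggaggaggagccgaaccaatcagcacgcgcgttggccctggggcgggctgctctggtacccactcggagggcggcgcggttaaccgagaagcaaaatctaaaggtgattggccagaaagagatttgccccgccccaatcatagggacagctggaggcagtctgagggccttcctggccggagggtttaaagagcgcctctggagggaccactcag

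Trib3, chr2:152344011-152344310, minus strand: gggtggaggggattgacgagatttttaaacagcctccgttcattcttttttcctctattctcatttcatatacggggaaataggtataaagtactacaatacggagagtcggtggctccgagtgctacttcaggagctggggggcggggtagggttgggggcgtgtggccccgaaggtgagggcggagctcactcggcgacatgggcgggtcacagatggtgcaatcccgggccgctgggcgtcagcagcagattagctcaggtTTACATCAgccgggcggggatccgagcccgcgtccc

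Asns, chr6:7693160-7693459, minus strand: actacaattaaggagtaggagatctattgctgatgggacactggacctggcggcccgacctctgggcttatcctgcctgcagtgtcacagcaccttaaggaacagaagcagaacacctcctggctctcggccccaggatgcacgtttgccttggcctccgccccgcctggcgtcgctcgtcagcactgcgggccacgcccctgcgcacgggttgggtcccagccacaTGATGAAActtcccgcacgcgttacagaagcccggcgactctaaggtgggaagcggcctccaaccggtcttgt

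Nupr1, chr7:126625421-126625720, minus strand: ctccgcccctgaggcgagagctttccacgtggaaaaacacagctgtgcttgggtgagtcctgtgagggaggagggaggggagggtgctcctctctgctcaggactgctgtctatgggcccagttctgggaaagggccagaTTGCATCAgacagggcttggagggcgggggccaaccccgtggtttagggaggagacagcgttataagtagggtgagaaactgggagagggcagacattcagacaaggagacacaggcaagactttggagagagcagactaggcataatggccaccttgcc

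The element was found in 5 of 21 list members with a promoter window (23.8%), the fifth being Herpud1, and in 4.06% of 27025 promoters of the same length. The motif was added to the search after the values were seen, so these shares are a description. Chac1, which breaks down glutathione, was the 1 of 22 measured members that passed in the 21-array fit. It read 544, 589 and 522 with albumin and 146, 152 and 131 with vehicle (log2 1.84 ± 0.30, adjusted p = 0.0186).

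Nupr1, a small stress-induced chromatin protein, read 9128, 9866 and 10264 with albumin against 1932, 1779 and 2003 with vehicle, a log2 difference of 2.35 ± 0.51. In the 6 arrays alone its adjusted p was 0.00721, and in the 21-array fit 0.0883. Trib3, a pseudokinase that restrains Atf4 and Akt, read 251, 277 and 272 against 65.7, 46.2 and 82.5 (6 arrays, adjusted p = 0.0401). Asns, asparagine synthetase, read 1094, 1191 and 1096 against 601, 513 and 538 (6 arrays, adjusted p = 0.0253). In each of these genes the lowest albumin array was above the highest vehicle array by a wide margin.

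Amino acid genes and reticulum chaperones of the list were read next. Slc7a5, the large neutral amino acid transporter, read 345, 363 and 401 against 32.9, 50.0 and 54.1 (6 arrays, adjusted p = 0.0111). Psat1, of serine synthesis, read 636, 676 and 604 against 172, 185 and 151 (6 arrays, adjusted p = 0.00831). Ddit3, the proapoptotic factor CHOP, read 924, 951 and 1022 against 466, 417 and 371 (6 arrays, adjusted p = 0.0280). Hspa5, the endoplasmic reticulum chaperone BiP, read 5737, 6149 and 6067 against 3868, 4097 and 4035 (6 arrays, adjusted p = 0.0286). Atf4 itself, which is controlled largely by translation, read 2316, 2427 and 2552 against 2143, 1852 and 2152, a log2 difference of 0.25 ± 0.11 (adjusted p = 0.455).

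Over the 22 members, 21 had a log2 fold above 0 and the median was 0.28. At an unadjusted p under 0.05, 12 were higher and 0 lower, where 5.27% of all genes were higher and 5.34% lower. In the 6 arrays alone 8 members passed, all higher, where 0.468% of all genes passed as higher. Outside the list, and named after their values were seen, 3 further enzymes of serine, one-carbon and proline synthesis read alike. Phgdh read 565, 652 and 718 against 234, 179 and 161, Mthfd2 read 275, 308 and 350 against 70.5, 67.5 and 54.3, and Aldh18a1 read 281, 314 and 348 against 112, 139.9 and 134. Their adjusted p in the 6 arrays lay between 0.0133 and 0.0402, and in the 21 arrays between 0.137 and 0.278. Eprs, the glutamyl-prolyl tRNA synthetase, passed in the 21-array fit by 1 probe set (log2 0.76), while its brightest did not (adjusted p = 0.269).

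The metallothionein and Nrf2 list gave no call in the larger fit: 0 of its 18 measured members passed in the 21-array fit. At an unadjusted p under 0.05, 10 were higher and 0 lower, where 5.27% of all genes were higher and 5.34% lower. The exporter Abcc1, which passed, is not on this list, so the count speaks for the listed genes only. The median log2 fold of 0.69 was the highest of the 28 process lists. In the 6 arrays alone 6 members passed, all higher, where 0.468% of all genes passed as higher. Slc7a11, the cystine importer, read 207, 183 and 135 with albumin and 13.5, 13.6 and 9.17 with vehicle, at least 3.31-fold higher (6 arrays, adjusted p = 0.0141). Srxn1, sulfiredoxin, read 667, 765 and 697 against 154, 172 and 199 (6 arrays, adjusted p = 0.0108). Hmox1, haem oxygenase 1, read 498, 499 and 450 against 186, 190.0 and 228 (6 arrays, adjusted p = 0.0275). Gsta2, a glutathione transferase, read 565, 510.1 and 454 against 168, 119.8 and 129, and Txnrd1, thioredoxin reductase, read 1843, 1870 and 2005 against 1188, 1083 and 1137. Both passed in the 6 arrays (adjusted p = 0.0296 and 0.0271). Nqo1, another common target, read 99.4, 96.9 and 73.9 against 65.5, 54.4 and 47.0 and passed in neither fit (21 arrays, adjusted p = 0.550). The zinc-binding Mt1 read 2978, 3359 and 3478 against 2426, 2244 and 1658, which did not pass (adjusted p = 0.409).

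The spread of these genes in the 12 h groups enters the 21-array fit. Nupr1 had a log2 SD of 0.09 in each of the 3 h groups used here, and of 0.87 in HBSS and 1.14 in BSA at 12 h. The 4 vehicle arrays at 12 h read 8282, 8895, 2540 and 3950 for Nupr1, and the 4 albumin arrays at 12 h read 10324, 10146, 2543 and 2617. Within each 12 h group, replicates 1 and 2 thus came near the albumin level of 3 h, and replicates 3 and 4 stayed lower. Srxn1 showed the same division, at 1027, 1070, 276 and 426 in vehicle and 927, 881, 193 and 256 in albumin. In albumin at 12 h it coincided with a ratio of 2 probe sets of a spiked control, 1.62 and 1.66 against 0.939 and 1.06. In vehicle at 12 h that ratio was 1.13 to 1.22 on all 4 arrays. The cause of this division was not tested.

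Chaperones lay on both sides of 0. Heat shock elements are shown for the promoters of both chaperones that passed, with capitals on the matches to GAANNTTC on either strand.

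Hspe1, chr1:55087898-55088197, plus strand: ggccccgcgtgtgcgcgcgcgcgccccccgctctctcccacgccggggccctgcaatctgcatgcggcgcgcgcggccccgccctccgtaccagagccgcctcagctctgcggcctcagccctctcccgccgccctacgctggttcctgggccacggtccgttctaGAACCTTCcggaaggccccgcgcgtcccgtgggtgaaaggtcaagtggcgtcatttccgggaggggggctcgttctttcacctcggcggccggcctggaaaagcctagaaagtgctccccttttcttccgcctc

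Hspb1, chr5:135887669-135887968, plus strand: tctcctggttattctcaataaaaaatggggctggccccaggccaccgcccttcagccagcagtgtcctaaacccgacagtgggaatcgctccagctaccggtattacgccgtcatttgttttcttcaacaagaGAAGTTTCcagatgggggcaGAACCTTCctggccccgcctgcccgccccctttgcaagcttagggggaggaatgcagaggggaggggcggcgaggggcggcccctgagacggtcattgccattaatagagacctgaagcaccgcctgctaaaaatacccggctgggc

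This motif stood in 9 of 17 promoter windows of the chaperone list (52.9%) and in 7.95% of 27025 promoters. The windows of Hspa1a and Hspa1b, which read lower with albumin without passing, held it too. Those of Hspd1, read higher, and Dnajb1, read lower, did not, so the motif does not mark the direction of change. Hspe1, the mitochondrial co-chaperonin Hsp10 that caps Hsp60, read 3083, 3432 and 2814 with albumin and 1734, 1578 and 1887 with vehicle (log2 0.84 ± 0.13, adjusted p = 0.0172). Hspb1, the small heat shock protein Hsp25 that binds actin and keratin, read 7726, 8644 and 8644 against 4067, 4317 and 5652 (log2 0.84 ± 0.13, adjusted p = 0.0166). Hspd1, Hsp60 itself, whose promoter window overlaps that of Hspe1 on the opposite strand, read 3250, 3699 and 2869 against 2072, 2249 and 2086. It did not pass in the 21-array fit (adjusted p = 0.149) but did in the 10 arrays of 3 h (adjusted p = 0.0325).

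Hspa1a, Hspa1b and Dnajb1 of the Hsp70 and Hsp40 families were read below 0 without passing. Other Hsp70 genes were read higher: Hspa5, given above, and a probe set of Hspa9 (log2 0.64) passed in the 6 arrays alone. Hspa1a, of the Hsp70 family, read 294, 182 and 121 with albumin and 434, 624 and 247 with vehicle (log2 -1.06 ± 0.37, adjusted p = 0.319). Hspa1b read 1664, 855 and 572 against 2239, 2382 and 1528 (log2 -1.09 ± 0.35, adjusted p = 0.264). Their groups overlapped, and the near-identical pair may share probes. Dnajb1, their Hsp40 partner, read 1285, 1169 and 930.0 against 1863, 1904 and 1605 without overlap (log2 -0.67 ± 0.16, adjusted p = 0.115). Of the 20 measured chaperones on the list, 2 passed, both higher, and in the 6 arrays alone 0 of the listed genes passed. At an unadjusted p under 0.05, 3 were higher and 3 lower, where 5.27% of all genes were higher and 5.34% lower.

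**Figure D3:**
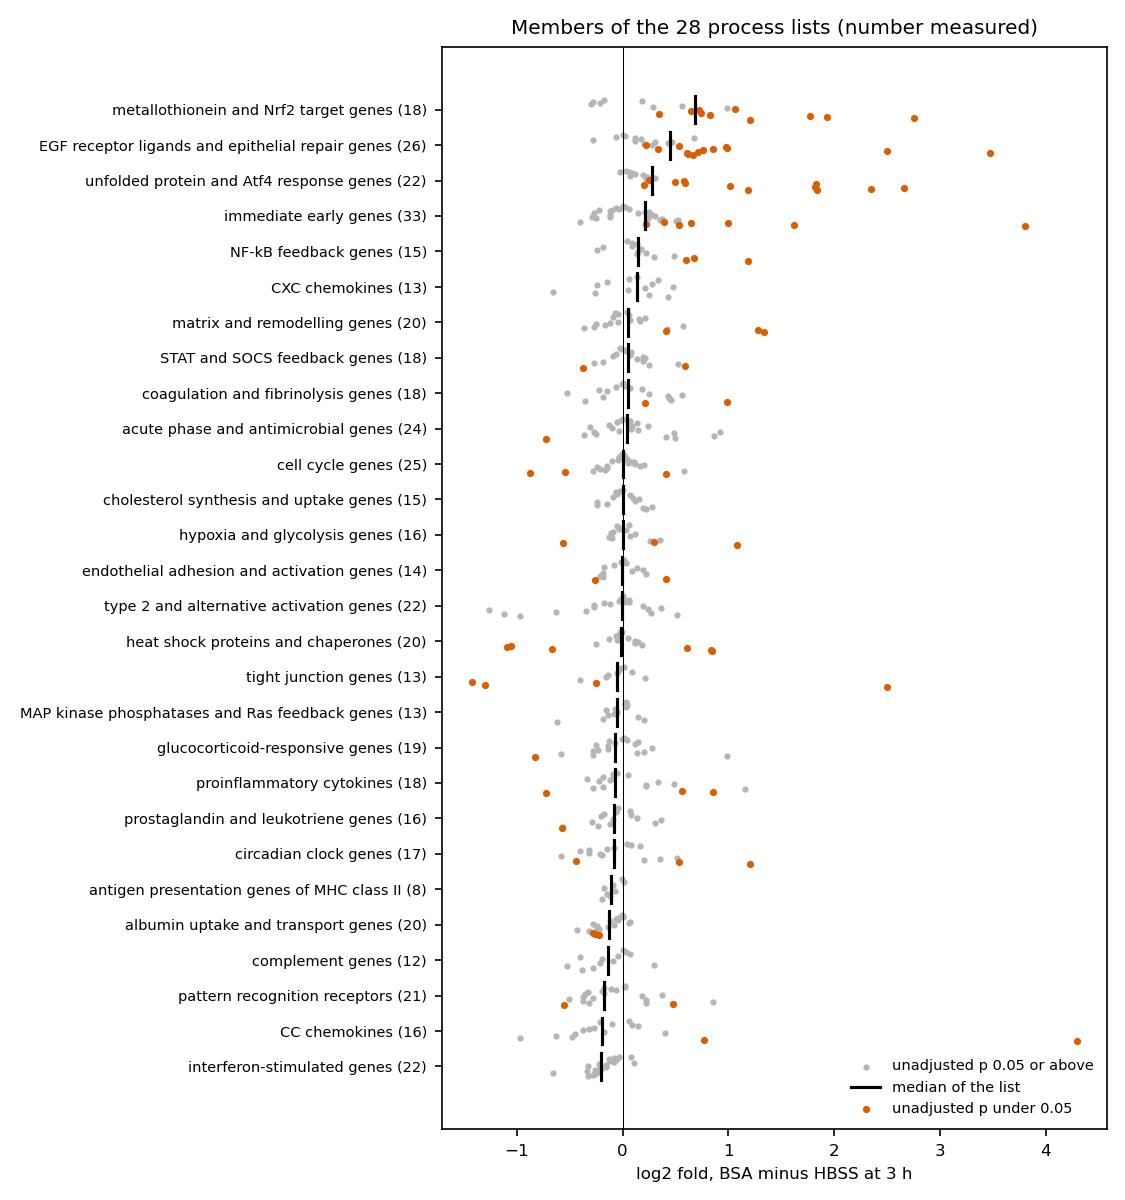
Each row is 1 of the 28 process lists, with the number of measured genes in brackets, and each point is 1 gene. The x axis is the log2 fold of BSA over HBSS at 3 h, orange marks an unadjusted p under 0.05 and the black bar is the list median. Medians run from 0.69 for metallothionein and Nrf2 targets to -0.21 for interferon-stimulated genes.

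The lists of inflammatory genes read here gave no call between albumin and vehicle in the 21-array fit. None of the 13 listed CXC chemokines passed or had an unadjusted p under 0.05. Cxcl17, which passed as described above, is not on this list, so the count speaks for the listed genes only. Cxcl1, the main neutrophil attractant, read 329, 218 and 364 with albumin and 454, 369 and 68.6 with vehicle, so its groups overlapped (log2 0.33 ± 0.77, adjusted p = 0.943). Il1b read 233, 114 and 273 against 574, 304 and 82.9, and Ccl2, the monocyte chemokine, read 41.9, 45.0 and 79.9 against 124, 69.7 and 39.2. Tnf was under the noise level on all 6 arrays. Il6 read 64.4, 42.3 and 43.9 against 20.5, 14.5 and 6.69 without overlap, and did not pass (log2 1.16 ± 0.61, adjusted p = 0.569).

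Of 16 CC chemokines 0 passed in the 21-array fit, 1 in the 6 arrays alone and 2 in the 10 arrays of 3 h, Ccl20 and Ccl25, the second of which was under the noise level on all 6 arrays. Ccl20, an epithelial attractant of Ccr6-bearing lymphocytes and dendritic cells, read 354, 379 and 669 with albumin and 10.4, 15.5 and 0 with vehicle, the largest log2 difference of a list member at 4.29 ± 0.95 and at least 8.16-fold. It passed in the 6 arrays alone (adjusted p = 0.0294) and not in 21 (adjusted p = 0.0962). Its log2 SD was 0.51 in vehicle and 0.49 in albumin at 3 h, and 1.31 and 2.20 at 12 h. Of the 15 NF-kB feedback genes 0 passed and 3 were higher at an unadjusted p under 0.05, as were 5.27% of all genes. Bcl3, a nuclear NF-kB partner, read 335, 516 and 536 against 242, 175 and 160.1 (adjusted p = 0.146), and Tnfaip3, the brake A20, read 119.9, 138 and 127 against 157, 118 and 101. Of 22 interferon-stimulated genes 0 passed, 0 had an unadjusted p under 0.05, and 2 had a log2 fold above 0. Of 24 acute phase and antimicrobial genes 0 passed, and haptoglobin (Hp) read 4356, 3458 and 4386 against 5969, 6786 and 7361 (log2 -0.72 ± 0.32, adjusted p = 0.472).

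Few probe sets passed as lower with albumin in the 21-array fit. At an unadjusted p under 0.05 the 2 sides were alike, with 5.34% of all genes lower and 5.27% higher. Of the 4 probe sets that passed as lower, 3 were under the noise level in both groups, Cer1 and Havcr1 among them, so no fold is given. The fourth carries no single gene name and read 36.2, 38.7 and 35.4 against 80.8, 65.3 and 89.98 (adjusted p = 0.0437). Of the 10 lower genes with the smallest unadjusted p, the largest step was that of Cckar, a receptor of the gut hormone cholecystokinin. Cckar read 147, 166 and 105 with albumin and 758, 649 and 868 with vehicle, a log2 difference of -2.33 ± 0.49. It passed in the 6 arrays alone (adjusted p = 0.0294) and missed in 21 (adjusted p = 0.0742). Alas1, the first enzyme of haem synthesis, read 2023, 1995 and 1386 against 3543, 3721 and 3414 (log2 -0.996 ± 0.22, adjusted p = 0.0999).

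In the 10 arrays of 3 h Cckar and Alas1 passed (adjusted p = 0.0252 and 0.0257). The other genes with the smallest unadjusted p on the lower side did not pass in the 21-array fit, and Rasd1 and Ppp2r2b passed in the 10 arrays (adjusted p = 0.0135 and 0.0425). Rasd1, a small G protein induced by glucocorticoid, read 20.0, 19.3 and 20.4 with albumin and 80.0, 64.6 and 48.4 with vehicle. Rcsd1, Gne, Ybx1, Bphl, Ppp2r2b and Naglu had log2 differences from -0.29 ± 0.06 for Gne to -0.69 ± 0.17 for Bphl. Of 13 tight junction genes 0 passed in the 21-array fit, and in the 10 arrays of 3 h 1 passed as higher and 1 as lower. Cldn8 read 39.3, 40.4 and 20.5 against 95.8, 86.6 and 133, and Cldn10 read 153, 159 and 124 against 393, 359.6 and 509. Both stood lower on every albumin array, opposite to Cldn4. A probe set of Cldn2, close to the noise level, was higher too, at 34.0, 45.9 and 37.7 against 0, 0 and 0 (6 arrays, adjusted p = 0.00938).

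Genes that take up or carry albumin gave no call. Of 20 measured, 0 passed in either direction and 4 had a log2 fold above 0. At an unadjusted p under 0.05, 3 were lower, as were 5.34% of all genes. Fcgrt, the neonatal Fc receptor that rescues albumin from breakdown, read 957, 734 and 898 with albumin and 1128, 973 and 997 with vehicle (log2 -0.26 ± 0.10, adjusted p = 0.379). Lrp2, megalin, an endocytic albumin receptor, read 349.5, 383 and 478 against 376, 431 and 397. Its partner Cubn was under the noise level on all 6 arrays, and the mouse's own Alb read 13.4 to 18.6 against 13.5 to 30.7, also under it. Cav1, of caveolae, read 9221 to 9481 against 9221 to 9364.

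Markers of the lung's cell types gave no call: in each of the 16 marker lists 0 members passed. Medians ran from -0.26 for ciliated cells (2 of 11 above 0) to 0.25 for cardiac and skeletal muscle (19 of 23 above 0). The summed intensity of the 14 measured neutrophil markers was 3573 to 7658 with albumin and 2653 to 7898 with vehicle. That of the 23 muscle markers was 13308 to 19332 and 9733 to 16348, and its part in other results was not tested. Of 8 alveolar type 1 markers, 2 were above 0 and 2 were lower at an unadjusted p under 0.05, and their summed intensity was 37487 to 38655 against 39762 to 41977. Of 21 endothelial markers, 4 were above 0 and 3 were lower at that limit, and their summed intensity was 54938 to 58881 against 59014 to 60266. On every albumin array 6 of them stood lower than on any vehicle array, and 1 higher. Over all genes 9.17% stood apart lower in this way and 8.8% higher, and 5.34% were lower at an unadjusted p under 0.05. The sums of both lists did not overlap between the groups, and their part in other results was not tested.

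The same genes were read in the lungs that received the fungal extract at 3 h. That comparison uses the same 3 vehicle arrays, so its folds are set beside these and not counted as separate evidence. For the 30 probe sets higher with albumin, log2 folds over vehicle had a median of 1.07 with albumin (0.61 to 3.80) and of 0.85 with MACA (0.07 to 3.63). The 30 were chosen by their difference on these same albumin arrays, which favours the higher albumin median and lower values with MACA. Nothing is read from that order. The direct difference between MACA and BSA passed for 3 of the 30, where 2.67% of all probe sets were higher and 1.99% lower with MACA. Abcc1 was lower with MACA than with albumin (log2 -0.33 ± 0.09, adjusted p = 0.0437), and Rcan1 was higher with MACA (log2 0.57 ± 0.14, adjusted p = 0.0301). A probe set with no single gene name was lower with MACA (log2 -1.11 ± 0.18, adjusted p = 0.00232). Fosl1 read 170.1 to 238 with MACA, a range that overlaps that of albumin, and the log2 difference between them was -0.17 ± 0.62.

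Among all genes 3.24% were higher and 1.99% lower with MACA than with albumin in the same direct test. Of 22 Atf4 and unfolded protein genes 0 were higher with MACA and 1 was lower, Vldlr, a lipoprotein receptor. Of 18 Nrf2 and metallothionein genes 2 were higher with MACA, the zinc-responsive Mt1 and the metal importer Slc39a14, and 0 lower. Among EGF receptor ligands and repair genes 4 of 26 were higher and 1 lower. In contrast, 12 of 15 NF-kB genes, 7 of 13 CXC chemokines, 16 of 22 interferon-stimulated genes and 16 of 33 immediate early genes were higher with MACA than with albumin. Cxcl1 read 3187 to 5395 with MACA and 218 to 364 with albumin (log2 3.71 ± 0.72, adjusted p = 0.00833). Atf3 read 547 to 1134 with MACA and 158 to 206 with albumin (log2 2.05 ± 0.32, adjusted p = 0.00198). Without BSA replicate 2 the count of probe sets that differ between MACA and BSA fell from 1055 to 319, and without replicate 1 to 364. Arrays 3 and 4 of MACA lie in another technical set than the albumin arrays, and with the set as a term the count was 762.

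**Figure D4:**
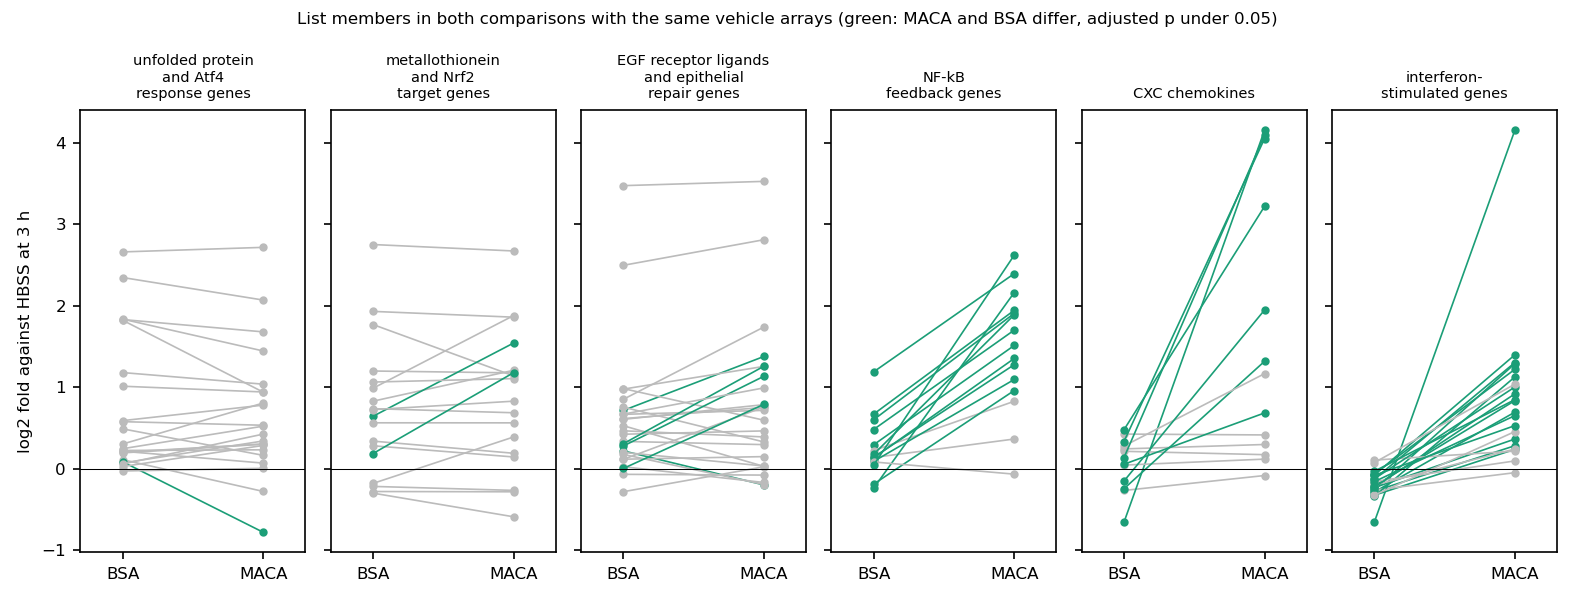
Each line joins the log2 fold of 1 gene over the same vehicle arrays with BSA (left) and with MACA (right) at 3 h, for 6 lists. Green lines are genes whose direct MACA to BSA difference passed an adjusted p of 0.05. In the Atf4 panel 1 line is green, and in the NF-kB panel 12 of 15 are.

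At 12 h the genes called at 3 h were not called. None of the 34 probe sets passed for BSA against HBSS at 12 h, a comparison in which 1.18% of probe sets did. For the 30 that were higher at 3 h, the median log2 fold at 12 h was 0.06, with a range of -0.30 to 0.42. The change of the difference between times was tested itself: 13 of the 34 passed, all larger at 3 h, where 0.504% of all probe sets passed. The 34 were chosen by their difference on the same 3 h arrays, which favours both this count and this direction, so nothing is read from either. Gjb2 read 94.2 to 125 in albumin and 85.9 to 145 in vehicle at 12 h, and its difference shrank by a log2 of 1.76 ± 0.26 (adjusted p = 0.0138). Abcc1 read 421 to 499 against 377 to 477 at 12 h, and its log2 difference was 1.02 ± 0.13 larger at 3 h (adjusted p = 0.00461). Chac1 and Fosl1 did not pass this test (adjusted p = 0.103 and 0.0831).

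All 6 arrays of 3 h belong to one technical set, recognised by a ratio of 2 probe sets of a spiked control (1.63 to 1.91). The 4 HBSS arrays and 2 of the 4 BSA arrays of 12 h belong to another, so the time comparison crosses the sets. With the set as a term, chosen after seeing the data, 67 probe sets passed for BSA against HBSS at 3 h, with all 34 among them. The count of probe sets whose difference changed between times rose from 114 to 2180, and among the 34 it was 30. Among the same 34 it was 0 without scaling and 5 to 12 when 1 array was left out. No vehicle array of 12 h lies in the set of the 3 h arrays, so the change between times has no value within that set. In BSA at 12 h the set coincides with the division of replicates 1 and 2 from 3 and 4 described above. The set term therefore also takes up that division, and the 2 cannot be told apart in the counts with the term.

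**Figure D5:**
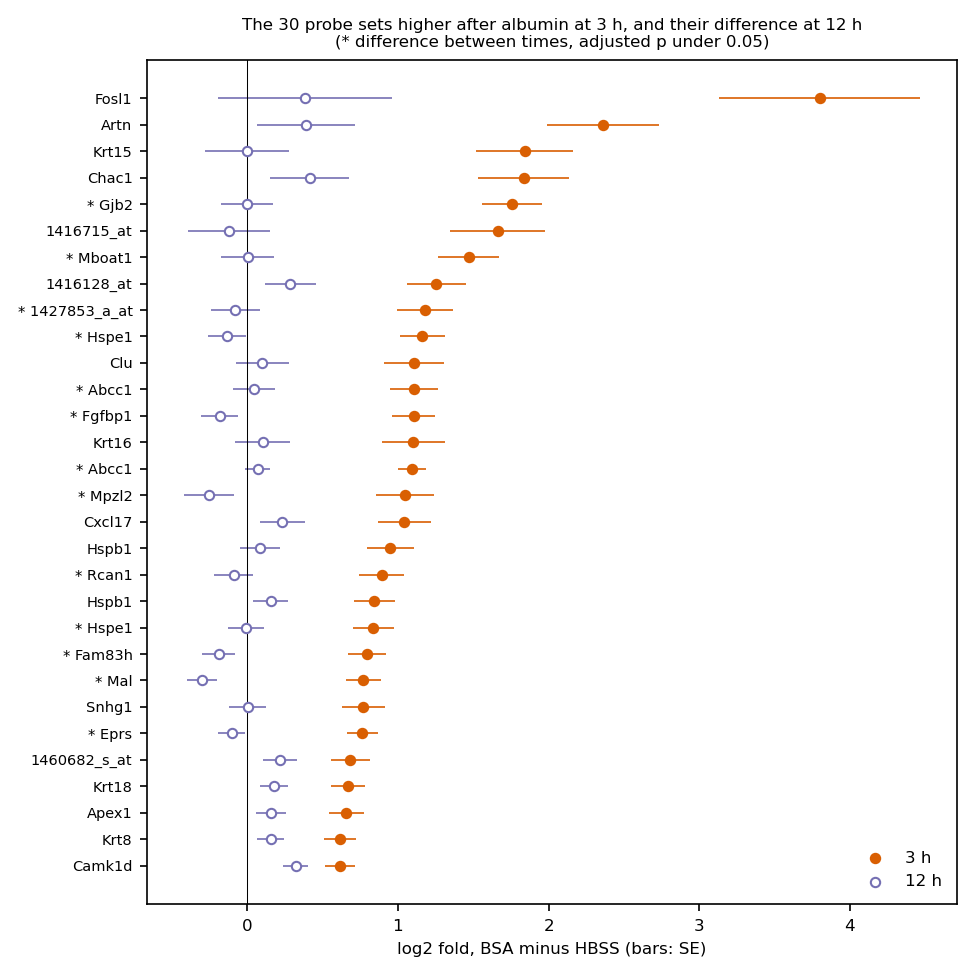
Each row is 1 of the 30 probe sets higher with albumin at 3 h, with the log2 fold of BSA over HBSS at 3 h (filled) and at 12 h (open) and bars of 1 SE. An asterisk marks a change between times that passed an adjusted p of 0.05. The filled points lie between 0.61 and 3.80 and the open points between -0.30 and 0.42.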

How the data were processed

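Biotin-labelled cRNA from the left lung was hybridised to arrays with Affymetrix-type probe set names, per the labels' protocols. Intensities were deposited without log transformation, and 9.90% to 11.2% of those on the 6 arrays are negative. The sources used here do not give the steps behind them. All 22626 probe sets other than controls were quantile normalized over 21 arrays, negative values became 0, and tests ran on log2(value + 16), so folds of dim genes are understated. limma (3.58.1, R 4.3.3) fitted 6 group means with 15 residual degrees of freedom, or the 6 arrays alone with 4. For their own fits, the 6 arrays and the 10 arrays of 3 h were quantile normalized anew. Tests were 2-sided with Benjamini-Hochberg adjusted p under 0.05 over all probe sets, which is what "passed" means. An exact permutation test of 3 against 3 arrays cannot go below 0.1. For arrays, their number limits the precision.

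The platform annotation names 1 gene for 20380 probe sets, several for 691 and none for 1555. Symbols were updated through the RefSeq gene table, and 29 kept an older one. A gene was read by its brightest probe set. A fold is given as "at least" where a group lay under the noise level on every array. Named genes were the 15 highest called folds and the 10 lower genes with the smallest unadjusted p, all with groups apart and above noise in at least 1 group, and up to 6 members of each list. Other genes in the text were chosen after their values were seen. The 44 lists held 801 genes, 713 of them measured. The members of the comparison, the lists and the rules were chosen with earlier results of these data known. The fits were tested on simulated data. Alternatives were the scaling, the pseudocount, a filter on dim probe sets, the variance model, the arrays fitted, 1 probe set per gene, and leaving out each array. Figures used matplotlib 3.10.9 under python 3.11.15.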

Additional observations from a re-analysis of the deposited data

Results flagged for a closer look

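In 11 of the 25 genes named by size or p, against 0.46% of all 12393 genes, the albumin to vehicle difference at 3 h differed from that at 12 h by the limma test of the change itself. The 25 were picked by their difference on the same 3 h arrays, which favours such a change, so the count is a description. The log2 difference was larger at 3 h for Gjb2 (by 1.76), Mboat1 (by 1.47), Fgfbp1 (by 1.29), Mal (by 1.07), Abcc1 (by 1.02), Fam83h (by 0.98), Rcan1 (by 0.98) and Hspe1 (by 0.84), all of which passed at 3 h. For 3 genes that did not pass at 3 h the change had the opposite sign: -0.47 for Gne, -0.49 for Rcsd1 and -0.69 for Ybx1. Ybx1, an RNA-binding protein, was lower with albumin on every 3 h array and higher at 12 h, at 4509 to 5155 against 3458 to 3904. These changes cross the technical sets of arrays, whose part was not tested beyond the fit with the set as a term. No array stood apart by Dixon's limit in the 75 groups of 4 arrays screened (0 of 75), where chance gives about 1 in 20. The groups were those of MACA at 3 h and of BSA and HBSS at 12 h. The albumin and vehicle arrays of 3 h were not screened, so the count says nothing about them. The limit looks for 1 array far from the rest of its group, so it cannot flag the division of replicates at 12 h described above.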

How the results depend on the processing

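The 17 named genes that passed kept their sign under every alternative tried, and all 17 still passed with dim probe sets left out, with 1 probe set per gene, with an intensity trend and robust variance, and with the technical set as a term. None of the 17 passed without scaling, which shifted the median of all probe sets by 0.11, and 10 passed in the 6 arrays alone. The count of higher probe sets, 30, became 0 without scaling, 84 in the 6 arrays, 135 in the 10 arrays of 3 h, 48 with trend and robust variance, 60 with the technical set, and 6 to 26 when 1 array was left out. The count of lower probe sets, 4, became 0 without scaling, 2 with 75th percentile scaling, 1 with a pseudocount of 64, 2 with a pseudocount of 4, 2 without dim probe sets, 13 in the 6 arrays, 36 in the 10 arrays, 2 with 1 probe set per gene, 2 with trend and robust variance, 7 with the technical set and 1 to 5 when 1 array was left out.

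The count of changes between times, 114, became 0 without scaling, 53 with 75th percentile scaling, 200 with a pseudocount of 64, 75 without dim probe sets, 2180 with the technical set and 17 to 111 without 1 array. The count of differences between MACA and BSA, 1055, became 56 without scaling and 319 to 1107 without 1 array. Same-numbered arrays correlated at 0.262, 0.0352 and 0.0739 in their deviations, and differently numbered ones at -0.309 to 0.198. Deviations from a mean of 3 arrays depend on one another, so these values cannot decide whether the samples are paired. With the replicate block in the 6 arrays, 1 probe set passed as higher and 0 as lower, and 3289 had an unadjusted p under 0.05. None of the 17 named genes passed with it (adjusted p from 0.223 to 0.255). Adjusted p over the alternatives ranged from 0.000127 to 0.407 for Fosl1, from 0.0003 to 0.376 for Gjb2 and from 3.75e-05 to 0.376 for Abcc1. The cause of these ranges was not tested. Signal near the noise level limits Krt15, Artn and Fosl1.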

Other observations

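Of 6 genes of ribosome assembly picked after their values were seen, with no list behind them, 5 passed in the 6 arrays alone. The remaining gene, Nop56, did not by its brightest probe set (limma adjusted p = 0.0928) and did by another (0.0392). Riox2, a nucleolar oxygenase, read 332, 348 and 325 with albumin and 151, 163 and 158 with vehicle (log2 1.02 ± 0.05, limma adjusted p = 0.00831). Rrp12 read 107, 135 and 106 against 47.6, 47.5 and 44.8 (adjusted p = 0.0397), Tma16 read 175, 160.0 and 169 against 85.1, 83.2 and 79.9 (adjusted p = 0.00938), and Wdr12 and Pno1 passed as well (adjusted p = 0.0397 and 0.0286). None passed in the 21-array fit, with adjusted p from 0.0873 for Tma16 to 0.518 for Nop56. Akr1b8, an aldo-keto reductase, read 1182, 1254 and 1313 against 489, 477 and 405, and Gadd45a, of growth arrest, read 370.1, 398 and 414 against 153, 141 and 138. Both passed in the 6 arrays (adjusted p = 0.0145 and 0.00831). Atp2b2, a plasma membrane calcium pump, was on the lower side at 25.1, 36.1 and 28.4 against 108, 132 and 129.8, and no less than 2.44-fold lower (6 arrays, adjusted p = 0.0245).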
